A study of Drosophila melanogaster with 2 samples.

Results

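Of 3470 genomic peaks of the tagged protein CG4707, 659 (19.0%, exact 95% interval 17.7 to 20.3) had their summit 51 to 500 bp upstream of the nearest annotated transcription start site (TSS) of a single promoter. These are called upstream peaks here. They were chosen by position alone: the summit had to lie on the upstream side of the TSS with the smallest distance to it. Summits between a pair of divergent protein-coding TSSs of different genes at most 1000 bp apart were left out, because such a summit lies upstream of both genes. The upstream peaks belonged to 607 genes, and 576 of the peaks (87.4%) were nearest to a protein-coding gene. The data are chromatin immunoprecipitation with sequencing (ChIP-seq) from Drosophila melanogaster embryos aged 0 to 14 h, males and females pooled. All embryos came from 1 transgenic line that stably carries CG4707 with GFP at its C terminus, and the 2 libraries are its biological replicates 2 and 3, with no second condition or untagged line in the comparison. A free-text label calls both libraries input controls, whereas the title, assay and antibody labels describe ChIP-seq of a transcription factor, and they were read as such. Chromatin was sonicated to 200 to 800 bp, coordinates are on dm6, and the region lists used here do not give the sequencing depth.

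The stretch just upstream of a TSS holds the binding sites of many sequence-specific factors, whereas the core promoter around the TSS itself recruits RNA polymerase. Core promoters in flies carry short elements at set places, such as the TATA box, the Initiator, the downstream promoter element (DPE), and the polypyrimidine TCT initiator of ribosomal protein genes. Promoters of broadly expressed genes often carry the DNA replication-related element (DRE), bound by Dref, or Motif 1, bound by M1BP. ChIP of sonicated embryo chromatin averages over all cell types, and it places a protein on DNA to within about a fragment, whether the contact is direct or through another protein.

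The sequences below carry the 8-mer CACTGTGC, which 95 of the 659 upstream peaks (14.4%) held within 100 bp of the summit. They are Release 6 (dm6) genome sequence from RefSeq, written 5′ to 3′ on the strand that reads CACTGTGC, and each is 24 bases long. Capitals mark CACTGTGC and the second 8-mer CCCACTGT, which is ACAGTGGG on the other strand. The 8-mers share the letters CACTGT, so together they spell CCCACTGTGC. They are the sites of 10 of the strongest upstream peaks that hold CACTGTGC. PAN3 has a pair of sites on opposite strands.
Tollo, chr3L:15235387-15235410, plus strand: attcggCCCACTGTGCactgtggg
CG42327, chr3R:11656062-11656085, plus strand: acatcaCCCACTGTGCcacttctc
Rtnl1, chr2L:4997565-4997588, minus strand: ggcgtgCCCACTGTGCactgcttg
CG8034, chrX:19298207-19298230, minus strand: atttggCCCACTGTGCgacgacgg
CG11151, chrX:13739612-13739635, plus strand: ttcatgCCCACTGTGCatcagctg
spi, chr2L:19575661-19575684, minus strand: atcgcaacCACTGTGCcgttggca
RapGAP1, chr2L:7530867-7530890, plus strand: tttgtgCCCACTGTGCaacgttgc
mib1, chr3L:16011885-16011908, minus strand: actttttcCACTGTGCggcataga
Glyp, chr2L:2130518-2130541, minus strand: atatcgCCCACTGTGCgttgctga
PAN3, chr3L:3081505-3081528, plus strand: tttgcgacCACTGTGCgcagtcgc
PAN3, chr3L:3081322-3081345, minus strand: gttcgttcCACTGTGCctctgctg

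Longer windows show where the summit itself fell. Each of the next sequences runs from 50 bases before to 50 bases after the summit, on the strand of the gene, with both 8-mers in capitals. The first 3 windows hold CACTGTGC, and the window at CG14100, a strong upstream peak, holds neither 8-mer.
Tollo, chr3L:15235373-15235473, plus strand: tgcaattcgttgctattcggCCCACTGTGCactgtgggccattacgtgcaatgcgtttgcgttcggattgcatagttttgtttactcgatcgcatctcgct
CG42327, chr3R:11656018-11656118, plus strand: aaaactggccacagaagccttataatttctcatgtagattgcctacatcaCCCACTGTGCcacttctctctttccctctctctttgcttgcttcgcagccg
mib1, chr3L:16011830-16011930, minus strand: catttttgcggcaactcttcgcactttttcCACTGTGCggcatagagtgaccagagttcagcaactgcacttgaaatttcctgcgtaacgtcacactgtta
CG14100, chr3L:19590568-19590668, minus strand: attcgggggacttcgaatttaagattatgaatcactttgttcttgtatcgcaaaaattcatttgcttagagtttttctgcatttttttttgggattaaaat

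The upstream peaks spanned the range of the peak list. Their pooled signal, a score of the authors' peak caller that is used here only to rank and describe regions within a list, ran from 118 to 4736 with a median of 211 (quartiles 150 and 355). The strongest upstream peak was also the strongest of all peaks. It lay at mbl (muscleblind), which encodes an RNA-binding regulator of splicing, at chr2R:17265023-17265595, with its summit 175 bp upstream of an internal TSS and inside an intron of the gene. Its signal was 4736 in the pooled list, 2246 in replicate 2 and 2520 in replicate 3, rank 1 in each of the 3 lists. It held neither 8-mer.

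The second strongest upstream peak was at Tollo, which encodes a Toll-family receptor: the summit lay 196 bp upstream with a pooled signal of 2354, with 1000 in replicate 2 and 1356 in replicate 3. At spi (spitz), a ligand of the EGF receptor, the signal was 1747 pooled, 769 in replicate 2 and 985 in replicate 3, with the summit 124 bp upstream of an internal TSS. At mib1 (mind bomb 1), a ubiquitin ligase that acts on Notch ligands, the summit lay 68 bp upstream and the signal was 1672 pooled, 724 in replicate 2 and 956 in replicate 3. Each of these 3 peaks held CACTGTGC, and the peaks at Tollo and mib1 lay at the most upstream TSS of their gene. Signal at RapGAP1, a GTPase-activating protein for Rap1, was 1693 pooled, 853 in replicate 2 and 839 in replicate 3. Signal at Vinc (vinculin), a linker of actin to adhesion sites, was 1764 pooled, 870 in replicate 2 and 896 in replicate 3. Both lay upstream of an internal TSS, at 255 and 61 bp, and both held the 8-mer.

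The other strong upstream peaks lay at genes of varied function. At Rtnl1, a reticulon of the endoplasmic reticulum, the signal was 2097 pooled, 928 in replicate 2 and 1172 in replicate 3. At Glyp, glycogen phosphorylase, it was 1494 pooled, 740 in replicate 2 and 757 in replicate 3. At PAN3, part of an mRNA deadenylase, it was 1467 pooled, 666 in replicate 2 and 796 in replicate 3. These 3 peaks held CACTGTGC. The peak at sm (smooth), an RNA-binding protein of the hnRNP L family, held neither 8-mer and had 2189 pooled, 1003 in replicate 2 and 1155 in replicate 3. The same was true of px (plexus), a gene of wing vein patterning, with 1874 pooled, 937 in replicate 2 and 945 in replicate 3. Replicates were furthest apart among the 20 strongest at Ptip, whose protein works with a histone methyltransferase, where the pooled signal of 1735 came with 646 in replicate 2 and 1104 in replicate 3. The remaining genes of the 20 strongest were CG42327, CG14100, CG8034, CG11151, Ptpmeg2, CG1635, CG18549 and RluA-1, with pooled signals between 1422 and 2172. In all, 12 of the 20 strongest upstream peaks and 23 of the 50 strongest held CACTGTGC.

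Strong upstream peaks were recovered in both replicates and weak ones often were not. Overlap with any region of the long replicate lists was nearly complete (659 in replicate 2 and 657 in replicate 3), which for peaks chosen by reproducibility says little. A region among the top 3470 of the replicate was overlapped by 592 (89.8%) in replicate 2 and by 580 (88.0%) in replicate 3. The signals of the 2 replicates had a Spearman correlation of 0.795 across 657 peaks, which share their libraries and are not independent, and of 0.486 across 287 TSS peaks as defined below. TSS peaks also had a narrower spread of pooled signal (quartiles 135 and 216, against 150 and 355), and its part in the lower correlation was not tested. Peaks with the lowest signal were recovered least: of the lowest 164 upstream peaks by pooled signal, 28.0% stood in the top of both replicates, against 100% of the highest 165. The pooled list holds the reads of both replicates, so these shares are not independent of it.

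**Figure D1:**
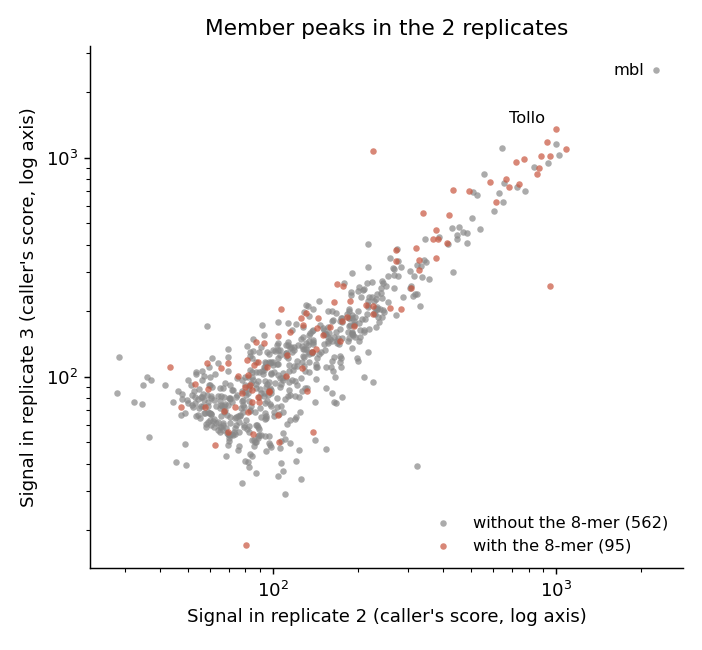
Signal of each upstream peak in replicate 2 (horizontal, log axis) and replicate 3 (vertical, log axis), in the caller's score, with 1 point per peak and colour for the 95 peaks with CACTGTGC and the 562 without it that have a region in both replicates. The peak at mbl stands alone at the top right, and a few points lie off the diagonal, among them chn (226 and 1077), whose summit shares a wide region, and the second summit at CG8034 (949 and 259).

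Points off the diagonal in that plot were picked out after their values were seen. A replicate value belongs to the overlapping replicate region with the nearest summit, so a wide region with several summits can pair unlike summits. Among the upstream peaks, 13 lay in regions that were listed with several summits, which left 653 distinct regions.

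Upstream peaks lay in several genomic settings. The summit was intergenic in 338 (51.3%), in an intron of the same gene in 207 (31.4%) and in an intron of another gene in 66. Exons held the rest, 26 in the same gene and 22 in another gene. Non-coding RNA genes were nearest to 69 upstream peaks, tRNA genes to 10 and snoRNA genes to 2. By chromosome arm, 2L held 119, 2R held 135, 3L held 136, 3R held 135, chromosome 4 held 5 and X held 129. The median summit lay 201 bp upstream of the TSS, and the called region, 380 bp wide at the median, reached the TSS in 226 (34.3%).

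Just inside the ends of the distance window lay Cmpk and Shawn at 51 bp (signals 313 and 219), and cpo at 500 bp and jar at 499 bp (128 and 364). Just outside it lay eEF1alpha1 at 50 bp and cer at 49 bp (251 and 172), and Rdh and dac at 502 bp (159 and 151). None of these 8 peaks held CACTGTGC.

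Several genes had more than 1 upstream peak, at the same or at different TSSs. There were 46 such genes with 98 peaks, of which 42 genes had 2, 2 had 3 and 2 had 4. The 4 peaks of Rtnl1 had pooled signals of 2097, 330, 244 and 197, and the strongest alone held CACTGTGC. The 4 peaks of Ptpmeg2, a tyrosine phosphatase gene, had 1752, 460, 459 and 254, and there the weakest alone held it. RapGAP1 had peaks of 1693 and 411 at different TSSs within the gene, and CACTGTGC was present at both. At spi and at CG8034 both summits lay in 1 shared region, with signals of 1747 and 1195 at spi and 1970 and 715 at CG8034. The 8-mer was thus not always at the strongest peak of a gene.

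Upstream peaks were set against TSS peaks, the 288 peaks of single promoters with the summit at most 50 bp from the TSS on either side. A peak was said to hold CACTGTGC when either strand reads it at most 100 bp from the summit. It was present in 95 of 659 upstream peaks (14.4%, exact 95% interval 11.8 to 17.3) and in 7 of 288 TSS peaks (2.43%, 0.983 to 4.94), with an odds ratio of 6.76 (Fisher's exact test, which was two-sided here and throughout; adjusted p = 3.27e-09). For scale, 199 of 19253 annotated protein-coding promoters (1.03%) hold it between 300 and 100 bp upstream, a window of the same length, and 191 (0.992%) within 100 bp of the TSS. The 2811 peaks other than the upstream ones, TSS peaks among them, held it in 249 cases (8.86%, 7.83 to 9.97), with no test. The 8-mer was thus not particular to the upstream peaks. Upstream peaks also more often had a high signal: 234 (35.5%, 31.9 to 39.3) ranked in the top 25% of all peaks, against 37 TSS peaks (12.8%, 9.21 to 17.3; odds ratio 3.74, adjusted p = 5.30e-13, Fisher's exact test). Of the upstream peaks 516 (78.3%, 75.0 to 81.4) stood in the top of both replicates, against 187 TSS peaks (64.9%, 59.1 to 70.4; odds ratio 1.95, adjusted p = 2.47e-05, Fisher's exact test). That last difference was no longer called among the stronger peaks alone, at an odds ratio of 1.31 (Fisher's exact test; adjusted p = 0.369). The 8-mer came from an earlier search on 2L, 2R and X of the same peaks. Its test here counts all arms, so the p of the 8-mer is not independent of that search. The regions counted come from the same 2 libraries, so these tests compare region lists and not conditions. Base composition differed between the classes, with a median GC of 36.8% around upstream summits and 45.8% around TSS summits, and its part in the results was not tested.

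**Figure D2:**
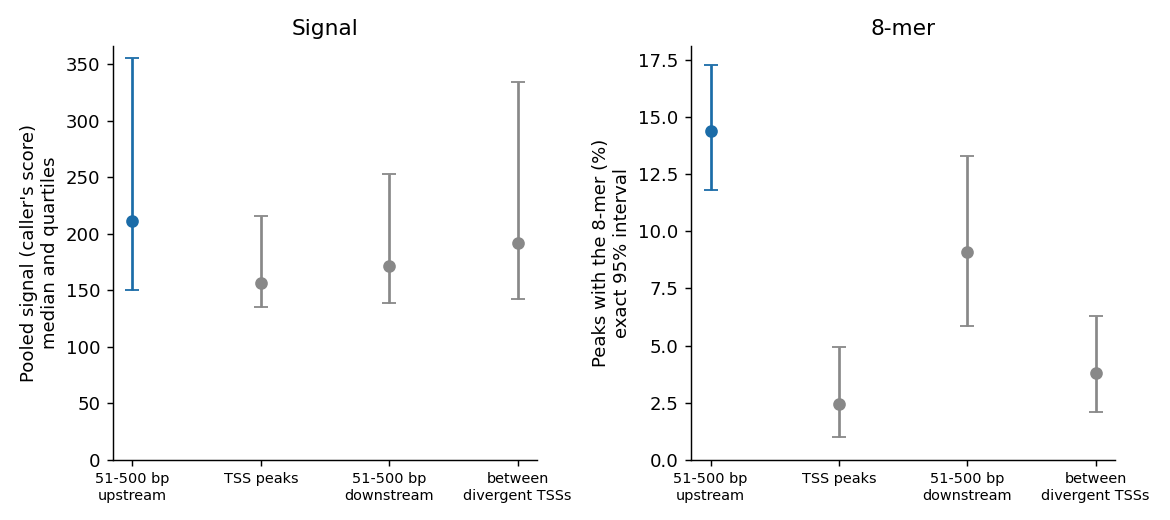
Left, pooled signal (caller's score) as median and quartiles, and right, the percentage of peaks with the 8-mer CACTGTGC with exact 95% intervals, for upstream peaks (blue) and for TSS peaks, peaks 51 to 500 bp downstream and peaks between divergent TSSs (grey). Upstream peaks had a median of 211 and an 8-mer share of 14.4%, the highest of the 4 classes in both panels. All 2811 other peaks of the list together, not drawn, had an 8-mer share of 8.86%.

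Peaks in other positions near promoters were compared in the same way, in tests added after the data had been seen. Those of CACTGTGC count all arms, including the arms of the earlier search, so their p-values are not independent of that search. Among 253 peaks 51 to 500 bp downstream of single TSSs, 23 (9.09%, 5.85 to 13.3) held CACTGTGC, an odds ratio of 1.68 for the upstream peaks (adjusted p = 0.0479, Fisher's exact test). This difference was not called under 6 of the 10 alternatives tried, among them the regions without replicate 2 (odds ratio 1.59, adjusted p = 0.0791, Fisher's exact test). Among 369 peaks between divergent TSSs, which lie upstream of a pair of genes, 14 (3.79%, 2.09 to 6.28) held it, an odds ratio of 4.27 (adjusted p = 8.45e-08, Fisher's exact test). The share in the top 25% by signal was 22.1% in downstream peaks, against 35.5% upstream (odds ratio 1.94, adjusted p = 0.000190, Fisher's exact test). Between divergent TSSs it was 29.8% (odds ratio 1.30, adjusted p = 0.0731, Fisher's exact test), and without replicate 3 that difference was called (odds ratio 1.32, adjusted p = 0.0478, Fisher's exact test). Against downstream peaks the signal difference was not called at the stricter threshold (odds ratio 1.09, adjusted p = 0.817, Fisher's exact test). Median GC was 42.8% in downstream peaks and 35.8% between divergent TSSs, and its part in these differences was not tested.

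The same position rule applied to weaker regions gave 2304 sub-threshold upstream regions, which come from the pooled list and overlap no peak. Because of the earlier search, the 8-mer was tested against them only on 3L, 3R and 4. There it was present in 30 of 276 upstream peaks (10.9%, 7.45 to 15.2) and in 26 of 1067 sub-threshold regions (2.44%, 1.60 to 3.55), an odds ratio of 4.88 (adjusted p = 6.96e-08, Fisher's exact test). Against regions just below the threshold alone, down to rank 6000, the share was 4.14% (6 of 145), with an odds ratio of 2.83 (Fisher's exact test; adjusted p = 0.0530). Over all arms the shares were 14.4% and 2.69%. The X chromosome had the highest share among the large arms, 20.2% (13.6 to 28.1), and 3R the lowest, 8.15% (4.14 to 14.1), with no test between arms. X, like 2L (17.6%) and 2R (13.3%), was an arm of the earlier search, and 3R, like 3L (13.2%), was not.

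Distance within the window was not found to differ between peaks and weaker regions. Summits 51 to 200 bp upstream made up 329 upstream peaks (49.9%) and 48.5% of the sub-threshold upstream regions (odds ratio 1.06, adjusted p = 0.536, Fisher's exact test), and the median sub-threshold summit lay 207 bp upstream. With an upper limit of 1000 bp the difference was called (odds ratio 1.40, adjusted p = 4.25e-05, Fisher's exact test), and likewise with divergent pairs kept (odds ratio 1.25, adjusted p = 0.00654, Fisher's exact test). The nearest TSS was the most upstream one of its gene for 426 upstream peaks (64.6%) and for 69.4% of sub-threshold regions (odds ratio 0.806, adjusted p = 0.0339, Fisher's exact test). The last difference was lost under 4 alternatives, in one of which the odds ratio was 1.10. Among upstream peaks the share at the most upstream TSS was 75.9% for summits 51 to 100 bp away and 57.7% for those 401 to 500 bp away.

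The 8-mer share was similar at each distance within the window and low at the TSS. It was 15.2% for summits 51 to 100 bp upstream, 14.3% at 101 to 200 bp, 14.0% at 201 to 300 bp, 13.6% at 301 to 400 bp and 15.4% at 401 to 500 bp. In the 50 bp upstream of the TSS it was 3.45% (4 of 116 peaks, 0.947 to 8.59), and in the 50 bp downstream 1.74% (3 of 172 peaks, 0.361 to 5.01). Sub-threshold regions had between 1.71% and 4.24% across the 5 upstream bins, and 0.860% and 1.32% in the bins on either side of the TSS. Downstream of the TSS the share of peaks varied from 3.39% at 101 to 200 bp to 14.3% at 201 to 300 bp and 16.3% at 401 to 500 bp, on 35 to 75 peaks a bin, so shares like those upstream also occurred there.

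**Figure D3:**
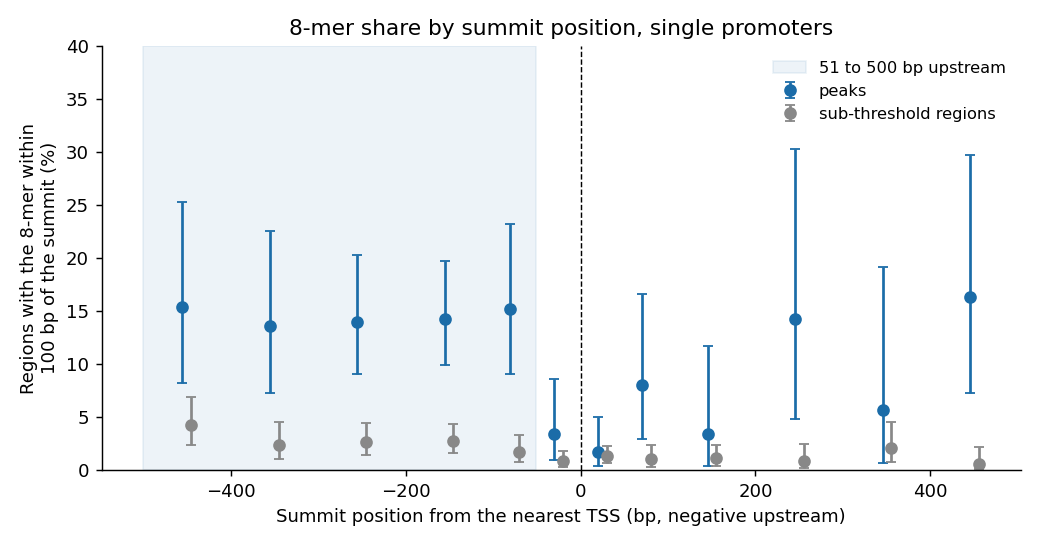
Percentage of regions with CACTGTGC within 100 bp of the summit (vertical) by summit position from the nearest TSS in bp, negative upstream (horizontal), for peaks (blue) and sub-threshold regions (grey) of single promoters, with exact 95% intervals. Peaks in the shaded 51 to 500 bp upstream held it in 13.6% to 15.4%, and peaks in the 2 bins next to the TSS in 3.45% and 1.74%.

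Upstream peaks with the 8-mer had the higher median signal, with quartile ranges that overlapped. Their median was 311 (quartiles 177 and 712) over 95 peaks, against 204 (148 and 334) over the 564 without it. All arms are counted here, including those of the earlier search for the 8-mer in the same peaks. In 4 groups of 164 or 165 peaks by pooled signal, from the highest, the share with CACTGTGC was 25.5%, 10.3%, 15.2% and 6.71%, so it did not fall evenly. Median GC was 41.8% with the 8-mer and 35.8% without it, and the part of GC in the difference was not tested. At the most upstream TSS of a gene the share was 12.7%, and at an internal TSS 17.6%. Intergenic summits held it in 13.3% of cases and summits in an intron of the same gene in 18.4%, with intervals that overlap (9.88 to 17.4 and 13.3 to 24.3).

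Bases beside the 8-mer were also uneven. The second 8-mer ACAGTGGG was present in 86 upstream peaks (13.1%), either one in 117 (17.8%) and both in 64 (9.71%), against 1 TSS peak with both (0.347%). Of the 2811 peaks other than the upstream ones, 9.11% held the second 8-mer, 12.9% either one and 5.02% both. The base before CACTGTGC was C in 93 of 103 sites (90.3%, 82.9 to 95.2), and it was C at 40.7% of 4658 genomic sites that lie more than 1000 bp from a peak summit. One base further out, C was present in 68.9% of the sites (59.1 to 77.7), against 27.7% of the distant ones. The base after the 8-mer was G in 44.7% (34.9 to 54.8), against 22.2%. The longer form CCCACTGTGC, which most of the sites printed above carry, was present in 63 upstream peaks (9.56%, 7.42 to 12.1), in 1 of 288 TSS peaks and in 20 of 2304 sub-threshold upstream regions (0.868%, 0.531 to 1.34). These flanking bases were read from the same peaks and are a description without a test.

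Most upstream peaks with the 8-mer had a single copy: 88 had 1 site, 6 had 2 and 1 had 3, which gave 103 sites. The middle of the site lay a median of 27.5 bp from the summit, and 70 sites (68.0%) lay within 50 bp of it. CG42327 had its site 5.50 bp from the summit, mib1 16.5 bp, Tollo 24.5 bp, and RluA-1 96.5 bp. Sites lay from 518 to 5.50 bp upstream of the TSS, at a median of 202 bp.

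Summits were not centred on the sites. Read along the strand of CACTGTGC, the summit lay on the 5′ side of the site for 76 of 103 (73.8%, 64.2 to 82.0), at a median position of -19.5 bp. The share was 73.6% for sites that read in the direction of the gene and 74.2% for sites that read against it. With each replicate's own regions and summits it was 74.2% in replicate 2 and 72.4% in replicate 3. All other peaks gave 67.3% of 272 sites (61.4 to 72.8), so the offset was not shown to be particular to the upstream peaks, and sub-threshold upstream regions gave 56.2% of 64 sites (43.3 to 68.6). These shares were looked at after the data had been seen and carry no test.

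**Figure D4:**
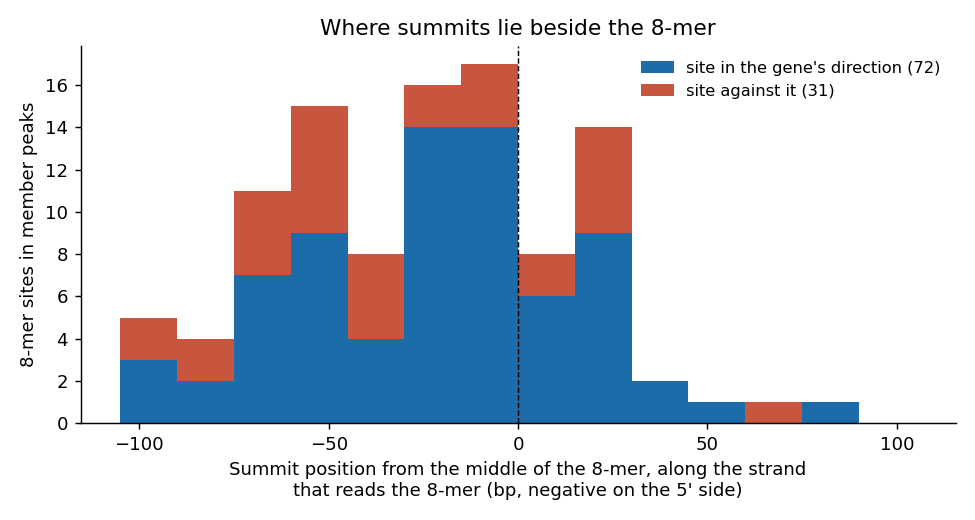
Number of 8-mer sites in upstream peaks (vertical) by the position of the summit from the middle of the site, along the strand that reads CACTGTGC, in bp (horizontal, negative on the 5′ side), with colours for the 72 sites in the gene's direction and the 31 against it. More sites lie left of 0 than right of it, 76 of 103, in both colours.

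The 8-mer read in the direction of the gene in 72 of 103 sites (69.9%, 60.1 to 78.5). Tollo, CG42327, Rtnl1, CG8034, CG11151, spi and mib1 had it in that direction, and RapGAP1 and Glyp against it. The corresponding share was 67.2% of 64 sites (54.3 to 78.4) in sub-threshold upstream regions and 59.8% of 204 sites (52.7 to 66.6) between 300 and 100 bp upstream of all protein-coding TSSs. In all other peaks, read against their nearest TSS, it was 50.4% of 272 sites (44.3 to 56.5). No test of the direction was made.

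Known promoter motifs were sought around the summit on both strands, and 3 of 10 differed between upstream and TSS peaks. DRE (TATCGATA) was less frequent at upstream peaks, in 11 of 659 (1.67%) against 22 of 288 (7.64%; odds ratio 0.205, adjusted p = 8.30e-05, Fisher's exact test). The core of Motif 1 (GGTCACAC) was also less frequent, in 15 (2.28%) against 25 (8.68%; odds ratio 0.245, adjusted p = 8.30e-05, Fisher's exact test). The letters TATAAA were more frequent, in 238 (36.1%) against 55 (19.1%; odds ratio 2.39, adjusted p = 1.16e-06, Fisher's exact test), in sequence that was also poorer in GC. The windows cover different stretches of the promoter, because that around a TSS peak includes the core promoter. Over all protein-coding promoters, DRE was present in 2.61% between 300 and 100 bp upstream and in 6.45% within 100 bp of the TSS. The core of Motif 1 was present in 1.81% and 5.68%, and TATAAA in 32.3% and 26.9%. All promoters thus differed by position in the same direction, and how much of the difference between the peak classes this leaves was not tested. Sub-threshold upstream regions, placed by the same rule, held DRE in 1.91%, the core of Motif 1 in 1.69% and TATAAA in 23.1%, also without a test.

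The other 7 motifs at the summit did not pass. GAGAGAG, the repeat bound by GAGA factor, was present in 79 upstream peaks and 31 TSS peaks (10.8%) (adjusted p = 0.745, Fisher's exact test), in 10.7% of sub-threshold upstream regions and in 4.91% of all promoters. The E-box CAGCTG was present in 10.5% and 14.9% (adjusted p = 0.156, Fisher's exact test), and in 9.12% of all promoters. The CTCF core AGGNGGC was present in 5.77% and 5.90%, beside 5.65% of all promoters. The core of Motif 6 (GGTATTT) was present in 6.37% and 7.29%, beside 4.90%. The Pho core GCCATNTT was present in 4.10% and 5.56%, beside 3.58%. CAGGTAG, the site of the early embryonic activator Zelda, was present in 1.21% and 0.347%, beside 1.15%, and the core of Motif 7 (GGTAGCG) in 0.607% and 1.04%, beside 0.561%. Within 100 bp of the TSS, the stretch nearer to that of TSS peaks, all promoters held GAGAGAG in 4.69%, the E-box in 13.4% and the CTCF core in 6.25%. There the core of Motif 6 was present in 6.59%, the Pho core in 4.22%, CAGGTAG in 1.08% and the core of Motif 7 in 0.831%. The E-box was called, as less frequent at upstream peaks, without replicate 2 (adjusted p = 0.0162) and without ribosomal protein genes (adjusted p = 0.0453), and the Pho core likewise with divergent pairs kept (adjusted p = 0.0435, all by Fisher's exact test). A missing match says only that these letters are not in the window.

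The TSSs nearest to the upstream peaks differed in core elements from those of the TSS peaks. Elements were sought on the sense strand at the nearest TSS of each peak, and 4 of 7 differed. A TSS with several peaks, as at spi and CG8034, is counted for each of them, which the p-values and intervals do not allow for. The Initiator TCAGT, from 10 bp before to 15 bp after the TSS, was present at 167 of 659 (25.3%, 22.1 to 28.8) against 40 of 288 (13.9%, 10.1 to 18.4; odds ratio 2.10, adjusted p = 0.000188, Fisher's exact test), and at 14.3% of all protein-coding TSSs. The TCT initiator TCTTTT was present at 1.67% against 6.94% (odds ratio 0.227, adjusted p = 0.000188, Fisher's exact test), and at 1.16% of all. DRE, from 100 bp before to 50 bp after, was present at 2.12% against 9.03% (odds ratio 0.219, adjusted p = 3.14e-05, Fisher's exact test), and at 6.27% of all. The core of Motif 1 was present at 3.03% against 7.64% (odds ratio 0.378, adjusted p = 0.00523, Fisher's exact test), and at 4.35% of all.

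Part of that result changed without ribosomal protein genes. They were 30 of the genes with a TSS peak and 1 of those with an upstream peak. With them left out, the Initiator (25.2% against 15.5%) and DRE (2.13% against 6.59%) still differed (adjusted p = 0.00607 for each, Fisher's exact test). TCTTTT did not (1.67% against 1.94%, adjusted p = 0.782), nor did the core of Motif 1 (3.04% against 6.20%, adjusted p = 0.0845, both by Fisher's exact test). The call for Motif 1 was also lost under 3 other alternatives. The TATA box in its own place, 45 to 15 bp before the TSS, was present at 3.49% against 4.17% (adjusted p = 0.677), the DPE letters AGACG at 3.64% against 3.82% (adjusted p = 0.854), and the E-box at 11.4% against 12.8% (adjusted p = 0.677, all by Fisher's exact test). Over all protein-coding TSSs these were 7.77%, 2.53% and 11.7%.

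**Figure D5:**
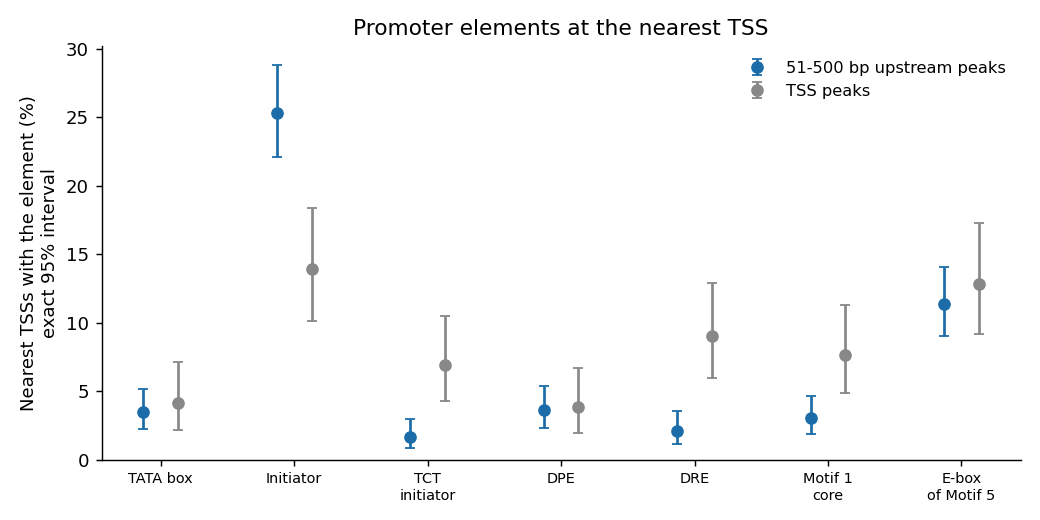
Percentage of peaks whose nearest TSS carries each core promoter element on the sense strand (vertical), for upstream peaks (blue) and TSS peaks (grey). Bars are exact 95% intervals. The Initiator stands at 25.3% and 13.9%, and the TCT initiator, DRE and the core of Motif 1 are lower in the blue points.

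Gene groups were counted as a description, with no test. An upstream peak was present at 607 of 18164 annotated genes (3.34%), and a TSS peak at 285 (1.57%), which are the shares to read the counts against. The genes counted there include non-coding ones. The lists were chosen with earlier results of these data known, so their intervals are not a test of enrichment. Of 91 cytosolic ribosomal protein genes 1 had an upstream peak, RpL23A, with its summit 60 bp upstream, a pooled signal of 391 (165 in replicate 2 and 219 in replicate 3) and the 8-mer. In the same group 30 had a TSS peak (33.0%). Of 75 mitochondrial ribosomal protein genes none had either kind, which allows an upstream share of up to 4.80% by the exact interval. Of 53 translation factor genes 1 had an upstream peak, eIF2beta (248), and 5 a TSS peak.

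Counts for splicing, signalling and adhesion genes were small, and their intervals wide. Among 35 splicing regulators 5 had an upstream peak (14.3%, 4.81 to 30.3) and 2 a TSS peak, with mbl, sm and elav, the RNA-binding protein of neurons (543), the strongest. Among 31 Wnt pathway genes 5 had an upstream peak (16.1%, 5.45 to 33.7) and 4 a TSS peak (12.9%). There the strongest were gish, a casein kinase (930), sgg, the fly GSK3 kinase (617), and Wnt6, a ligand (355 and 266). Among 38 genes of cell adhesion and its links to the cytoskeleton 6 had an upstream peak (15.8%, 6.02 to 31.3) and as many a TSS peak, the strongest upstream being Vinc, Nrt, the adhesion protein neurotactin (630), and by, a tensin (339). Among 28 Notch pathway genes 4 had an upstream peak and 1 a TSS peak, and the strongest were mib1, sbb (343) and gro, the corepressor Groucho (290). Among 41 genes of receptor tyrosine kinase and Ras signalling 4 had an upstream peak and 4 a TSS peak: beside spi the former included pnt, an ETS transcription factor (203), and edl, an inhibitor of such factors (144).

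Chromatin, stress, cell cycle, hormone and patterning genes gave counts of 3 or fewer. Of 25 genes on the trithorax group list 3 had an upstream peak, at sbb, fs(1)h, a bromodomain protein (231), and tara (150). The peak at sbb (343) is the same one that the Notch list counts. Of 22 Polycomb group genes 2 had one, ph-p (polyhomeotic proximal), with a strong signal of 1320 (628 in replicate 2 and 689 in replicate 3) and its summit 482 bp upstream, and Kdm2, a histone demethylase (167). Of 26 insulator protein genes 1 had one, psq (pipsqueak; 326), and of 27 heat shock and stress genes 3 had one, the small heat shock genes Hsp27 (510) and Hsp26 (179), and stv (145). The cell cycle list had 2 of 39, Dp, the partner of E2F (197), and trbl (142). The ecdysone list had 1 of 23, tai, a coactivator (151), and the patterning list 1 of 34, bcd, the anterior determinant Bicoid (244).

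Genes for specialised or small RNAs and late functions were near or under the share of all genes. No upstream peak was present at 186 chemosensory receptor genes (up to 1.96% by the exact interval) or at 90 cytochrome P450 genes (up to 4.02%), and 1 was present among 125 cuticle protein genes, at Cpr65Av (145). Among 290 tRNA genes 10 had one (3.45%, 1.67 to 6.25), with tRNA:Tyr-GTA-1-8 (630), tRNA:Ile-AAT-1-9 (208) and tRNA:Gln-TTG-2-1 (203) the strongest. Among 269 snoRNA genes 2 had one, snoRNA:Or-ACA6 (151) and snoRNA:Dek-a (121), and among 260 microRNA genes 1, mir-2491 (136).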

How the data were processed

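ChIP-seq regions of CG4707-GFP came from 2 biological replicates. The authors called regions per replicate and on pooled reads, with 1 control alignment for all, per the deposited file listing. Coordinates are dm6, per the labels. Neither aligner nor caller is named in what was used here. Signal is deposited as a score whose unit is not described. A second deposited column places the summit by its offset from the region start. In each replicate list 1 summit lies on the base after its region.

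Summits were placed on TSSs of Ensembl release 115, without transposable elements, with sequence from the Release 6 genome. For 16 upstream peaks the nearest TSS belonged to more than 1 gene, and a TSS that the summit lies upstream of, then a protein-coding one, was taken. Regions were called overlapping at 1 bp or more. Classes were compared by Fisher's exact test, two-sided, and p-values were adjusted by Benjamini-Hochberg per family (3 tests against TSS peaks, 3 against sub-threshold regions, 4 against downstream and divergent peaks, 10 summit motifs, 7 core elements) and a threshold of 0.05. The tests were checked on simulated data. Shares carry 95% Clopper-Pearson intervals, which cover counting error only. Depth is unknown. With 1 group there is no test between conditions.

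The upstream peaks, the gene lists, the motifs and the tests were chosen with earlier results of these data known. Named genes are those of the 20 strongest upstream peaks, up to 3 genes per list, up to 5 genes with several upstream peaks, and the 2 peaks next to each end of the distance window on either side. chn was named after its values were seen. Orientation, summit side, the classes of downstream and divergent peaks, the omission of ribosomal protein genes and the inclusion of transposable elements were added after the data had been seen. Other alternatives were a stricter threshold (the stronger 50% of peaks by rank), each replicate alone, upstream limits of 250 and 1000 bp, protein-coding TSSs only, other rules for divergent pairs, 50 bp sequence windows, the letters ACAGTG or ACAGTGGG, and sub-threshold regions to rank 6000. The scripts ran in Python 3.11.15. Tests and intervals came from scipy 1.17.1, tables from pandas 2.3.3 and numpy 2.4.6, and figures from matplotlib 3.10.9.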

Additional observations from a re-analysis of the deposited data

How the results depend on the processing

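Of 138 recomputed values under 17 settings, 118 were classed as unchanged and 20 were not. Odds ratios called in neither setting were classed as unchanged even where their direction differed. These were the near-TSS share against regions to rank 6000 (0.852) and the top-25% signal against divergent peaks at the stricter threshold (0.941). Counts of peaks, motifs and elements were judged by size alone, and site shares carry no p. Each p given is an adjusted p of Fisher's exact test, and the causes were not tested. Upstream peaks numbered 400 at the stricter threshold and 409 with an upper limit of 250 bp, and 622 and 670 with a single replicate's regions. The comparisons with TSS peaks of the 8-mer (odds ratio 2.42 to 8.08) and of the top-25% signal (2.29 to 6.19) were called under every alternative run. For the 8-mer each of those alternatives again counted all arms, so none was independent of the earlier search. At the stricter threshold the both-replicate share against TSS peaks had an odds ratio of 1.31 (adjusted exact p = 0.369). The 8-mer against sub-threshold regions to rank 6000 gave 2.83 (adjusted exact p = 0.0530). The most upstream TSS share gave 0.994 (adjusted exact p = 0.952) with the limit of 250 bp and 0.838 (adjusted exact p = 0.0984) for protein-coding TSSs. It gave 0.860 (adjusted exact p = 0.0789) with divergent pairs kept, and reversed to 1.10 (adjusted exact p = 0.517) against regions to rank 6000. The near-TSS share gave 1.40 (adjusted exact p = 4.25e-05) with a limit of 1000 bp and 1.25 (adjusted exact p = 0.00654) with divergent pairs kept. The 8-mer against downstream peaks gave 1.44 (adjusted exact p = 0.617) at the stricter threshold, 1.59 without replicate 2 and 2.15 without replicate 3. It gave 1.33 (adjusted exact p = 0.145) with a limit of 1000 bp and 1.51 (adjusted exact p = 0.124) for protein-coding TSSs. Within 50 bp it gave 1.39 (adjusted exact p = 0.288), and ACAGTG in its place gave 1.21 (adjusted exact p = 0.257). Against divergent peaks ACAGTG gave 1.39 (adjusted exact p = 0.0595). These sequence comparisons with downstream and divergent peaks also counted all arms, so they were not independent of the earlier search either. Top-25% signal gave 1.09 (adjusted exact p = 0.817) against downstream peaks at the stricter threshold. Against divergent peaks it gave 1.32 without replicate 3 and 1.24 without replicate 2. Without ribosomal protein genes 2 core elements were called. No paired analysis was possible because the series holds 1 group. Depth was unknown, and both-replicate recovery was lowest for the weakest peaks.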
